A study of Rattus norvegicus with 21 samples.

Results

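Rat hearts whose coronary artery was tied for 6 h and then reopened were compared with hearts of sham-operated rats. The ischemia group, called MI6h_R, held 3 libraries numbered 11, 21 and 31. The Sham group held 3 libraries numbered 11, 31 and 41. These 6 libraries are 6 of 21 in the series. All genes that passed a filter on low counts were kept, which left 11742 of 17085 genes. In MI6h_R the left anterior descending coronary artery was closed for 6 h, and tissue was taken 24 h after the infarction began, which leaves 18 h of reperfusion. Sham rats had no ligation. All were Sprague Dawley rats, and the sampled tissue is called the infarct zone in every group, Sham included. MI24h, with the artery closed throughout the 24 h, and MI1h_R, with 1 h of ischemia and 23 h of reperfusion, had 3 libraries each and served for 2 direct contrasts. The other 9 libraries carry an F in their titles that the labels do not spell out, and rats given fenofibrate, a drug that activates the nuclear receptor PPARα, are named in the series' design. They entered only the estimate of spread. Neither the age nor the sex of the rats is stated in the labels, nor whether each library is a separate animal. The p-values therefore measure the spread between libraries.

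Heart muscle makes most of its ATP in mitochondria, from fatty acids above all, and its genes of fuel oxidation are driven by nuclear receptors of the estrogen-related receptor (ERR) and PPAR families with their coactivators. When blood flow stops for hours, muscle cells in the supplied territory die. Neutrophils and monocytes then enter the damaged wall, where they clear debris before fibroblasts build a scar.

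RNA from this tissue was sequenced in bulk, and each gene's level is given here in CPM, its counts relative to the size of the library, with libraries scaled by the trimmed mean of M values (TMM). The MI6h_R libraries held 18393795, 14195954 and 16255232 counts, and the Sham libraries 15642744, 16304733 and 17053737. Transcripts of the mitochondrial genome took 13.2, 11.3 and 17.9% of the counts in MI6h_R, against 36.9, 33.5 and 38.5% in Sham. Markers of cardiomyocytes, 7 of 8 with a row, summed to 4411, 2698 and 7687 CPM in MI6h_R and to 51180, 39400 and 75900 CPM in Sham. In bulk tissue, fewer cells of a type and less RNA per cell cannot be told apart. Markers of neutrophils summed to between 1078 and 1271 CPM in MI6h_R and to between 20.9 and 71.9 CPM in Sham. In MI24h, where the artery stayed closed, they summed to 2724, 436 and 1026 CPM. None of the markers of these cell types was at 0 in all 6 libraries. Markers of recruited macrophages, 4 of 5 with a row, summed to 2226, 2502 and 1508 CPM in MI6h_R, against 22.2, 1569 and 37.3 CPM in Sham. Sham library 31 thus stood apart from the other Sham libraries. Of these 4 markers, 1 was called higher and 0 lower. MI6h_R library 31 held the most muscle RNA of its group, and Sham library 11 the most interferon-response RNA of its own. Results that rest on one of these libraries are given with and without it.

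In MI6h_R hearts, 3438 genes were higher and 3283 were lower than in Sham hearts at a Benjamini-Hochberg adjusted p below 0.05 by edgeR's quasi-likelihood test. These are 29.3% and 28% of the genes tested, so 57.2% of all genes passed in one direction or the other, and counts within any gene list below are to be read against those shares. The change was at least 4-fold up for 791 genes and at least 4-fold down for 1120 genes. Among called genes with a mean of at least 10 CPM and no overlap between the groups, the largest rises were those of Il1r2, a decoy receptor for interleukin 1, and Arg1, the arginase of wound macrophages. The largest falls were those of Asb10, Trim50 and Slc2a4. The median log2 fold change over all genes was 0.06. With library size in place of TMM factors it was 0.91 and on TPM it was 0.99, so modest changes are relative to that choice. Library size alone gave 6878 genes higher and 1510 lower, and TPM gave 7946 higher and 1172 lower. Results on TPM come from limma on log2(TPM + 1), so they differ in the test and in an added offset as well as in scaling. That offset shrinks the changes of weakly expressed genes. For lists whose balance of called genes moved with this choice, the split under these alternatives stands beside that under TMM.

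**Figure D1:**
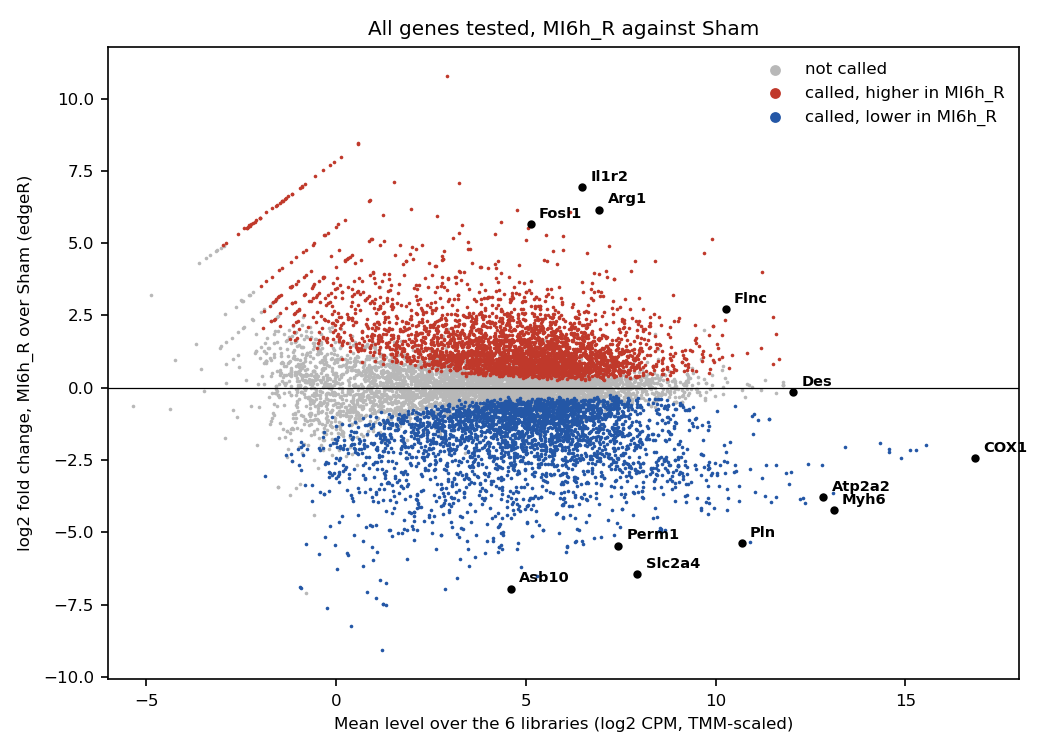
Each point is 1 tested gene, with its mean log2 CPM over the 6 libraries on the horizontal axis and its log2 fold change, MI6h_R over Sham, on the vertical axis; called genes are coloured by direction. Of the 11742 genes tested, 3438 lie above 0 and 3283 below it among those called, and the abundant muscle and mitochondrial genes sit in the lower right.

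The machinery of mitochondrial ATP production was lower in MI6h_R hearts almost without exception. All 32 tested nuclear-encoded subunits of complex I, which oxidises NADH, fell, with a median log2 fold change of -2.72 against 0.06 over all genes. All 33 tested subunits of complexes II to V fell as well, with a median of -2.75. Of 13 genes of the mitochondrial genome, 12 fell and ATP8 was not called, with a median of -2.14. Ndufs1, a core subunit of complex I, had 145, 114 and 242 CPM in MI6h_R, against 1495, 1158 and 1966 CPM in Sham. No MI6h_R library reached the lowest Sham library. The fitted log2 fold change was -3.21 ± 0.30 (SE; edgeR adjusted p = 2.52e-07). Sdhd, a membrane anchor of complex II, averaged 125 ± 22.8 CPM in MI6h_R and 981 ± 306 CPM in Sham (SD, n = 3 each), a log2 fold change of -2.97 ± 0.25. COX1, the mitochondrially encoded catalytic subunit of complex IV and the most abundant transcript of both groups, had 34028, 26692 and 48100 CPM in MI6h_R, against 194760, 163360 and 233640 CPM in Sham. That is a log2 fold change of -2.44 ± 0.32. ATP8, a small subunit of ATP synthase, had a log2 fold change of -1.49 ± 0.64 (edgeR adjusted p = 0.0545). The direction of these 3 lists was the same with library size alone, where their medians were -1.83, -1.87 and -1.26.

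Fuel entry fell with them. Of 30 genes of the citric acid cycle and pyruvate oxidation, 29 fell and 1 rose, with a median of -2.50. The exception was Pdk3, a kinase that switches pyruvate dehydrogenase off, at 42.1, 39.2 and 26.3 CPM in MI6h_R, against 12.6, 14.1 and 7.57 CPM in Sham (log2 fold change 1.65 ± 0.35). Pdhb, a catalytic subunit of pyruvate dehydrogenase itself, averaged 84.5 ± 22.1 CPM in MI6h_R and 689 ± 214 CPM in Sham. Of 37 genes of fatty acid uptake and oxidation, 30 fell and 5 rose, with a median of -2.94. Lpl, the lipase that frees fatty acids from circulating triglyceride, had 316, 199 and 521 CPM in MI6h_R, against 4294, 3530 and 6190 CPM in Sham, without overlap (log2 fold change -3.76 ± 0.39, edgeR adjusted p = 5.05e-07). Slc25a20, which carries acylcarnitine into the mitochondrion, fell by 2.79 ± 0.23 on the log2 scale. Among the 5 that rose were Plin2, which coats lipid droplets, and Angptl4, a secreted inhibitor of lipoprotein lipase. Plin2 averaged 799 ± 136 CPM in MI6h_R and 161 ± 64.0 CPM in Sham. Angptl4 had 275, 208 and 311 CPM in MI6h_R, against 3.40, 38.9 and 12.9 CPM in Sham. This amounted to a log2 fold change of 3.84 ± 0.62, and it was 5.07 without Sham library 31. All 13 genes of ketone and branched-chain amino acid use fell (median -2.92), among them Bcat2, the mitochondrial branched-chain aminotransferase, with a log2 fold change of -2.27 ± 0.21.

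Energy buffering was lower too, with 8 of 9 genes down and a median of -2.11, and 1 rose against 7 that fell with library size alone and 6 on TPM. Ckm, the muscle creatine kinase, averaged 337 ± 183 CPM in MI6h_R and 5249 ± 1801 CPM in Sham. Mb, the oxygen-storing myoglobin, averaged 1290 ± 687 CPM in MI6h_R and 16126 ± 6384 CPM in Sham. Their log2 fold changes were -3.96 ± 0.52 and -3.64 ± 0.46. The uncalled member was Slc25a5, an ADP/ATP carrier that is not confined to muscle. It had 552, 489 and 479 CPM in MI6h_R, against 349, 529 and 578 CPM in Sham, and the groups overlapped. The change on the log2 scale was 0.06 ± 0.18 (edgeR adjusted p = 0.788), and it was -0.12 without Sham library 11.

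One stretch of promoter sequence is shown for these lists because the ERR receptors that regulate them bind the half-site TCAAGGTCA. The letters were searched on both strands in RefSeq promoters of build GRCr8, from 250 bases before to 50 bases after each gene's start. They were present in 7.41% of the promoters of complexes II to V (2 of 27) and in none of 29 promoters each for complex I and fatty acid use. The share was 0.258% among the promoters of all genes tested (8532 had one) and 1.17% among genes that fell at least 4-fold. Matches are a description of these windows only. The 60 bases below lie upstream of Atp5mc3, a subunit of the membrane ring of ATP synthase and the gene of these lists with the largest fall that holds a match upstream of its start. Capitals mark the match, here on the opposite strand, at chr3:79220688-79220747, minus strand.
Atp5mc3: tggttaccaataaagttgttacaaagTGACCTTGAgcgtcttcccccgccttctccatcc
Atp5mc3 averaged 218 ± 62.7 CPM in MI6h_R and 1678 ± 456 CPM in Sham, and its log2 fold change was -2.95 ± 0.30 (edgeR adjusted p = 4.62e-07).

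Genes of the contractile apparatus were lower in MI6h_R hearts, with a few that were higher. Of 20 tested contractile and structural genes, 15 fell, 1 rose and 4 were not called, with a median log2 fold change of -3.16. The split was 13 lower and 3 higher with library size alone, and 13 lower and 5 higher on TPM. Without MI6h_R library 31 the counts were unchanged and the median was -3.90. Tnni3, the cardiac troponin I measured in blood after infarction, had 450, 321 and 1074 CPM in MI6h_R, against 7538, 8442 and 13521 CPM in Sham. The 3 MI6h_R values lay far below every Sham value, with library 31 highest among them. The log2 fold change was -4.0 ± 0.50 (edgeR adjusted p = 3.2e-06), and -4.67 without MI6h_R library 31. Myh6, the main myosin heavy chain of the adult rat heart, averaged 897 ± 534 CPM in MI6h_R and 16782 ± 8776 CPM in Sham. The gene's log2 fold change was -4.23 ± 0.62, and -4.83 without MI6h_R library 31. Actc1, cardiac α-actin, fell by 3.72 ± 0.46.

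Several proteins of the Z-disc and cytoskeleton did not share this fall. Xirp2, which binds actin at the intercalated disc, had 1691, 1689 and 2677 CPM in MI6h_R, against 389, 535 and 282 CPM in Sham, without overlap. In the fit its log2 fold change was 2.33 ± 0.27 (edgeR adjusted p = 1.69e-06). Its relative Xirp1 rose by 1.75 ± 0.38, at 299, 336 and 489 CPM in MI6h_R, against 158, 89.6 and 87.6 CPM in Sham. Flnc, the muscle filamin that crosslinks actin, had 1956, 2017 and 2430 CPM in MI6h_R, against 393, 321 and 259 CPM in Sham (log2 fold change 2.72 ± 0.31, edgeR adjusted p = 1.19e-06). Des, the muscle intermediate filament desmin, had 4436, 3293 and 4267 CPM in MI6h_R, against 3152, 5425 and 4768 CPM in Sham. The groups overlapped, and the log2 fold change was -0.15 ± 0.29 (edgeR adjusted p = 0.672), or 0.05 without Sham library 31. With library size alone it was 0.70, so the direction of Des depends on the scaling. Csrp3, a stretch-responsive protein of the Z-disc, had 1836, 1008 and 2025 CPM in MI6h_R, against 812, 2847 and 1470 CPM in Sham, and was not called (log2 fold change -0.07 ± 0.42). It was 0.54 without Sham library 31 and 0.18 without MI6h_R library 21. In the list of fetal genes and natriuretic peptides, 3 of 10 rose and 2 fell, with a median of 0.20, whereas 6 rose with library size alone, 7 rose on TPM and none fell on either scale. Without Sham library 31, 5 rose and 1 fell, and without MI6h_R library 21 none fell. The risers were Flnc, Xirp1 and Gdf15, a stress-induced cytokine.

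Genes of calcium handling were mostly lower in MI6h_R hearts. Of 24 genes of calcium handling and ion channels, 18 fell and none rose, with a median of -2.43, while 14 fell and 2 rose with library size alone, and 13 fell and 4 rose on TPM. Atp2a2, the pump that returns calcium to the sarcoplasmic reticulum, had 709, 672 and 1557 CPM in MI6h_R, against 14220, 9891 and 16688 CPM in Sham (log2 fold change -3.80 ± 0.38, edgeR adjusted p = 4.61e-07). Pln, phospholamban, which restrains that pump, had 19.2, 6.44 and 208 CPM in MI6h_R, against 2738, 2820 and 4086 CPM in Sham. MI6h_R library 31 held most of the Pln RNA of its group. The log2 fold change was -5.37 ± 1.05, and -7.96 without that library. The list of muscle ubiquitin ligases and growth brakes fell more steeply still, with 11 of 12 down. Its median was -3.72, or -4.65 without MI6h_R library 31. Trim63, which marks sarcomere proteins for breakdown, averaged 11.4 ± 6.03 CPM in MI6h_R and 140 ± 38.8 CPM in Sham. Asb10, a muscle member of the SOCS-box family, had 0, 0 and 1.16 CPM in MI6h_R, against 55.2, 24.7 and 64.9 CPM in Sham. Its fitted log2 fold change of -6.95 rests on MI6h_R library 31, where its counts lay, and was -12.44 without it and -6.32 without MI6h_R library 11. Klhl40, which stabilises sarcomere proteins, was the riser of the list, at 21.2, 6.86 and 16.0 CPM in MI6h_R, against 4.35, 6.46 and 2.52 CPM in Sham. Its log2 fold change of 1.72 ± 0.57 was not called without MI6h_R library 11 (1.36) or without Sham library 41 (1.44). Of 11 cardiac transcription factors, 6 fell and 1 rose, with a median of -0.97, or -1.79 without MI6h_R library 31. Scaled by library size alone, 2 fell and 3 rose. On TPM 2 fell, 4 rose and the median was 0.27, so the direction of that list depends on the scaling. Nkx2-5, which specifies heart muscle, averaged 41.8 ± 15.1 CPM in MI6h_R and 162 ± 20 CPM in Sham (log2 fold change -1.95 ± 0.37).

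**Figure D2:**
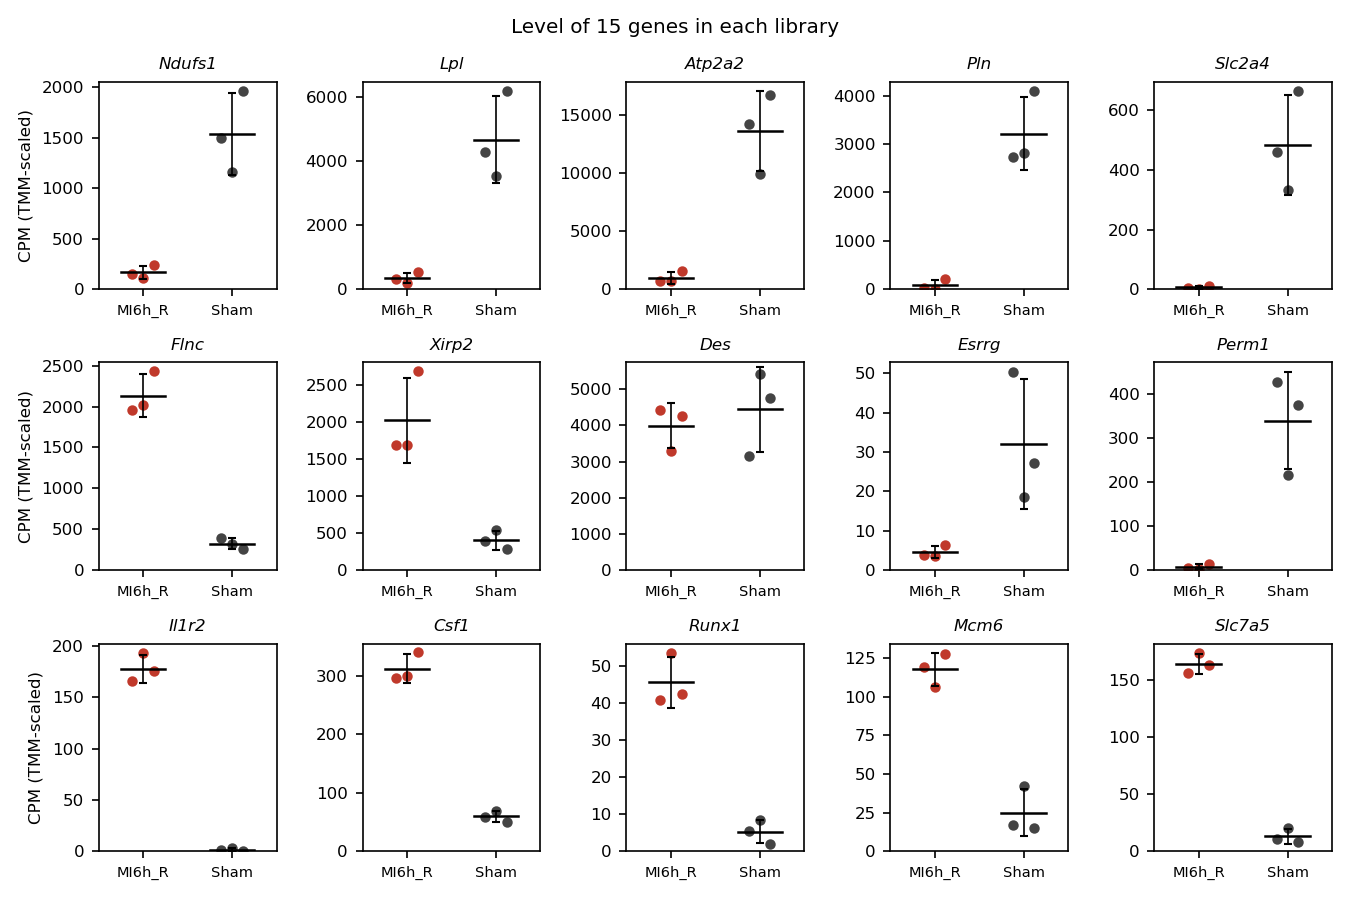
Each panel shows the CPM of 1 of 15 genes on a linear axis that starts at 0, with 1 point per library, MI6h_R left of Sham, the group mean as a line and the SD as bars. Pln and Atp2a2 are lower in every MI6h_R library, Flnc and Xirp2 are higher in every one, and Des overlaps between the groups.

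The nuclear receptors behind fuel oxidation were more often lower than higher in MI6h_R hearts. Of 17 genes of ERR and PPAR receptors with their partners and coactivators, 12 fell and 2 rose, with a median of -1.09. Both with library size alone and on TPM, 6 fell and 4 rose, and the median on TPM was 0.12. Esrrg, the ERRγ receptor of adult heart muscle, had 3.88, 3.55 and 6.45 CPM in MI6h_R, against 50.4, 18.6 and 27.1 CPM in Sham. The groups did not overlap, and the log2 fold change was -2.79 ± 0.46 (edgeR adjusted p = 5.55e-05). Esrra, which encodes ERRα and is expressed well beyond muscle, had 113, 105 and 101 CPM in MI6h_R, against 154, 186 and 249 CPM in Sham, a log2 fold change of -0.89 ± 0.16. With library size alone it was -0.01 and not called, and on TPM it was 0.33. Esrrb, encoding ERRβ, was barely expressed, at 1.02, 1.08 and 2.54 CPM in MI6h_R, against 8.69, 2.00 and 4.28 CPM in Sham. The groups overlapped. Esrrb had a log2 fold change of -1.69 ± 0.65 (edgeR adjusted p = 0.0341), and the call was lost without MI6h_R library 11 (-1.45), MI6h_R library 21 (-1.49), Sham library 11 (-0.99) or Sham library 41 (-1.76).

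Ppara, the receptor that fenofibrate activates, had 1.21, 1.93 and 6.23 CPM in MI6h_R, against 26.9, 5.73 and 8.44 CPM in Sham. MI6h_R library 31 lay above Sham library 31. The log2 fold change was -2.13 ± 0.69 (edgeR adjusted p = 0.0134). It was -3.12 without MI6h_R library 31, and it was not called without Sham library 11 (-1.17), MI6h_R library 11 (-1.74) or MI6h_R library 21 (-1.88). Ppargc1a, the coactivator PGC-1α that partners both families, had 0.533, 0.482 and 5.68 CPM in MI6h_R, against 32.3, 9.01 and 16.1 CPM in Sham. This amounted to a log2 fold change of -3.10 ± 0.84 (edgeR adjusted p = 0.0042), -5.21 without MI6h_R library 31 and -2.47 without Sham library 11. Perm1, a muscle regulator that acts with PGC-1α and ERR, had 5.53, 2.65 and 14.9 CPM in MI6h_R, against 426, 215 and 375 CPM in Sham. The change on the log2 scale was -5.46 ± 0.84, or -6.35 without MI6h_R library 31. Rxrg, the retinoid X receptor of muscle, was lower by a similar factor, with a log2 fold change of -5.31 ± 0.84, or -7.10 without MI6h_R library 31. The widely expressed partner Rxra rose to 58.5, 84.2 and 57.8 CPM in MI6h_R, against 54.0, 27.0 and 36.5 CPM in Sham (log2 fold change 0.77 ± 0.30, edgeR adjusted p = 0.0334). That call was lost without MI6h_R library 21 (0.57), Sham library 31 (0.61) or Sham library 41 (0.75). Nrf1, a transcription factor of mitochondrial biogenesis genes, rose by 0.86 ± 0.21.

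Genes of glucose use moved in both directions. Of 24 genes of glucose uptake and glycolysis, 10 rose and 10 fell, with a median of 0.10, against 13 and 7 with library size alone and 15 and 4 on TPM. Slc2a4, the insulin-responsive glucose transporter of muscle and fat, had 3.35, 1.44 and 11.8 CPM in MI6h_R, against 460, 331 and 664 CPM in Sham. The gene's log2 fold change was -6.45 ± 0.80 (edgeR adjusted p = 3.16e-06), or -7.63 without MI6h_R library 31. Slc2a1, the widely expressed glucose transporter, had 140, 140 and 104 CPM in MI6h_R, against 29.9, 29.4 and 30.7 CPM in Sham (log2 fold change 2.09 ± 0.35). Slc16a3, the lactate exporter of glycolytic cells, had 69.1, 62.5 and 27.9 CPM in MI6h_R, against 1.8, 6.19 and 0.219 CPM in Sham. In the fit its log2 fold change was 4.24 ± 0.66, or 5.70 without Sham library 31. Ldhb, the heart form of lactate dehydrogenase, averaged 422 ± 277 CPM in MI6h_R and 5739 ± 1828 CPM in Sham (log2 fold change -3.76 ± 0.49, or -4.43 without MI6h_R library 31). Of 14 genes of glycogen and the pentose phosphate pathway, 8 fell and 3 rose, with a median of -1.56. Scaled by library size alone, 8 fell and 6 rose, and on TPM 7 and 6. Gys1, muscle glycogen synthase, fell by 2.29 ± 0.26. Tkt, the transketolase of the pentose pathway, averaged 474 ± 107 CPM in MI6h_R and 128 ± 54.0 CPM in Sham, and rose by 1.89 ± 0.24.

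Hypoxia-related genes were likewise split, with 7 of 26 higher, 7 lower and a median of -0.06, which was 0.80 with library size alone. Under that scaling 13 were higher and 5 lower, and on TPM 17 and 3. It was 0.05 without Sham library 31 and 0.03 without MI6h_R library 21. Hif1a, the oxygen-regulated subunit of the hypoxia-inducible factor, averaged 499 ± 112 CPM in MI6h_R and 114 ± 12.3 CPM in Sham (log2 fold change 2.13 ± 0.28). Vegfa, the main growth factor of blood vessels, had 143, 88.1 and 112 CPM in MI6h_R, against 320, 309 and 474 CPM in Sham, without overlap. It fell by 1.68 ± 0.33 (edgeR adjusted p = 0.000326), a call lost on TPM (-0.46). Egln3, the hypoxia-induced prolyl hydroxylase that marks the factor for breakdown, had 86.1, 27.9 and 58.1 CPM in MI6h_R, against 362, 297 and 410 CPM in Sham, and fell by 2.63 ± 0.47. Bnip3, a hypoxia-induced mitophagy receptor, fell by 2.60 ± 0.37. The letters ACGTG, the core of a hypoxia response element, were present in 52.9% of the promoters of this list (9 of 17) and in 25.5% of those of all genes tested. They were not particular to this list. The share was 68.2% for ribosome biogenesis and nucleotide supply (15 of 22), 57.1% for mitochondrial dynamics and mitophagy (8 of 14) and 54.5% for clock genes (6 of 11).

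The neutrophil and recruited macrophage lists had the highest medians of the 50 gene lists. Of 20 neutrophil genes, 17 rose and 1 fell, with a median of 4.35 against 0.06 over all genes. Il1r2 had 166, 193 and 175 CPM in MI6h_R, against 0.850, 3.09 and 0.219 CPM in Sham. The 3 MI6h_R libraries lay close together and far above Sham, of which library 31 was highest. The log2 fold change was 6.95 ± 0.80 (edgeR adjusted p = 1.45e-06), or 8.35 without Sham library 31. Cxcr2, the receptor that guides neutrophils along chemokine gradients, averaged 65.1 ± 15.2 CPM in MI6h_R and 1.39 ± 0.765 CPM in Sham (log2 fold change 5.52 ± 0.66). S100a9, a subunit of calprotectin, averaged 444 ± 115 CPM in MI6h_R and 21.3 ± 10.8 CPM in Sham (log2 fold change 4.38 ± 0.59).

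Of 21 genes of monocytes and recruited macrophages, 18 rose and none fell, with a median of 2.41. Without Sham library 31, 20 rose and the median was 4.40. Arg1 had 291, 283 and 147 CPM in MI6h_R, against 3.50, 4.91 and 1.54 CPM in Sham (log2 fold change 6.16 ± 0.61, edgeR adjusted p = 4.02e-07). Spp1, the secreted glycoprotein osteopontin, had 391, 728 and 425 CPM in MI6h_R, against 0.0945, 612 and 3.84 CPM in Sham. Sham library 31 reached the MI6h_R range while the other Sham libraries held almost none. Its log2 fold change of 1.33 ± 1.26 was not called (edgeR adjusted p = 0.384), and without Sham library 31 it was 8.13 and called.

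Genes of resident macrophages were mixed, with 8 of 17 higher, 5 lower and a median of 0.45, or 1.3 without Sham library 31. The split was 11 higher and 2 lower with library size alone, and 12 and 1 on TPM. Cd163, a scavenger receptor for hemoglobin bound to haptoglobin, had 157, 305 and 211 CPM in MI6h_R, against 24.4, 29.8 and 21.1 CPM in Sham (log2 fold change 3.16 ± 0.58). Mrc1, the mannose receptor, had 287, 424 and 411 CPM in MI6h_R, against 59.1, 106 and 45.5 CPM in Sham (log2 fold change 2.41 ± 0.33). Both sets lay apart without overlap. Gas6, a ligand of the receptors that engulf dying cells, averaged 104 ± 20.1 CPM in MI6h_R and 657 ± 134 CPM in Sham, and fell by 2.65 ± 0.30. Lyve1, a marker of perivascular macrophages and lymphatic vessels, had 46.7, 50.1 and 42.7 CPM in MI6h_R, against 58.7, 58.8 and 44.4 CPM in Sham. It overlapped and was not called (log2 fold change -0.22 ± 0.22), and it was 0.62 with library size alone. Of 13 genes of MHC class II and dendritic cells, 4 rose and 1 fell, and 2 fell without MI6h_R library 11 or Sham library 31. Under library size alone, as on TPM, 7 of them rose and none fell. Of 26 genes of T, B, NK and mast cells, 5 rose and 5 fell, whereas 13 rose and none fell both with library size alone and on TPM, so the balance of that list depends on the scaling. The counts under TMM also depended on single libraries. Without MI6h_R library 21, 3 rose and 2 fell, and without Sham library 41, 3 rose and 3 fell. Without Sham library 31, 3 rose, without Sham library 11, 2 fell, and without MI6h_R library 11, 3 fell.

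Signals that draw and feed leukocytes were higher as well. Of 27 chemokine genes, 16 rose and 7 fell (17 and 3 with library size alone, 17 and 1 on TPM), with a median of 2.34, or 1.83 with the genes that had no Sham count set to their lower bound. Ccl2, the monocyte attractant, had 581, 690 and 650 CPM in MI6h_R, against 6.33, 79.5 and 5.15 CPM in Sham. It rose by 4.39 ± 0.71 on the log2 scale, or by 6.84 without Sham library 31. Cxcl3, a neutrophil attractant, had 187, 269 and 371 counts in MI6h_R libraries and none in Sham, and was at least 51.6-fold higher in MI6h_R against a floor of 3 counts per library. Cxcl12, which retains progenitors and leukocytes through Cxcr4, fell by 1.76 ± 0.55, at 72.8, 61.5 and 79.0 CPM in MI6h_R, against 251, 190 and 283 CPM in Sham. That call was lost with library size alone (-0.89).

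Of 18 genes of the interleukin 1 family and inflammasome, 11 rose and none fell (median 1.83). Il1b, the cytokine that Il1r2 binds without signalling, had 58.5, 54.1 and 86.1 CPM in MI6h_R, against 2.93, 17.1 and 3.51 CPM in Sham (log2 fold change 3.06 ± 0.51, or 4.40 without Sham library 31). Nlrp3, the inflammasome sensor, rose by 2.32 ± 0.35, or by 2.92 without Sham library 31. Casp1, the protease that matures interleukin 1β, overlapped between groups at 26.2, 22.2 and 17.3 CPM in MI6h_R, against 21.9, 25.8 and 25.9 CPM in Sham. It was not called, with a log2 fold change of -0.16 ± 0.25, which was 0.70 with library size alone. Of 21 genes of the interleukin 6 family and growth cytokines, 17 rose and 2 fell, with a median of 2.39, and on TPM 18 rose and none fell. Csf1, the growth factor of macrophages, had 297, 299 and 341 CPM in MI6h_R, against 58.8, 69.1 and 50.4 CPM in Sham, close together within each group and far apart between them (log2 fold change 2.39 ± 0.17, edgeR adjusted p = 6.81e-08). Osmr, the receptor subunit for oncostatin M, rose by 2.40 ± 0.29. Il4r, the interleukin 4 receptor chain, averaged 429 ± 24.1 CPM in MI6h_R and 98.7 ± 33.4 CPM in Sham.

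Interferon-response genes fell more often than they rose under TMM and with library size alone, but not on TPM, and their values differed widely among Sham hearts. Of 36 tested, 22 fell and 1 rose, with a median of -2.0. With library size alone 11 fell, 3 rose and the median was -1.15. On TPM 2 fell, 4 rose and the median was -0.43. Without Sham library 11, 8 fell, 1 rose and the median was -0.92. Without Sham library 31, 26 fell and 1 rose. Mx2, a dynamin-like antiviral GTPase, had 5.09, 5.72 and 6.73 CPM in MI6h_R, against 507, 31.3 and 104 CPM in Sham. The MI6h_R libraries were nearly equal, and Sham library 11 stood far above the other Sham libraries. The log2 fold change was -5.20 ± 1.44 (edgeR adjusted p = 0.00501), or -3.51 without Sham library 11. Usp18, a protease that dampens interferon receptor signalling, had 2.67, 2.23 and 2.65 CPM in MI6h_R, against 45.3, 7.83 and 22.4 CPM in Sham, without overlap. This amounted to a log2 fold change of -3.32 ± 0.85, or -2.56 without Sham library 11. On TPM neither gene was called, at -2.80 for Mx2 and -1.67 for Usp18. Irf8, a transcription factor of myeloid cells, was the riser, at 44.6, 73.1 and 24.8 CPM in MI6h_R, against 13.2, 19.4 and 7.02 CPM in Sham (log2 fold change 1.84 ± 0.38).

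Promoter stretches are shown for this list because interferon-stimulated response elements carry a recognisable repeat. The letters GAAA, any 2 bases and GAAA again, searched on both strands, were present in 64.3% of the list's promoters (18 of 28) and in 2.97% of the promoters of all genes tested. The 5 stretches of 60 bases are those of the members with the largest called falls that hold a match upstream of the start. They come from RefSeq, build GRCr8, and capitals mark the match. Gbp4 encodes an interferon-induced GTPase and lies at chr2:233978426-233978485, plus strand. Irf7, the master transcription factor of type I interferon production, lies at chr1:205800058-205800117, minus strand. Ifi44 lies at chr2:243303841-243303900, minus strand. Oas1a, a sensor of double-stranded RNA, lies at chr12:41330406-41330465, plus strand, and holds 2 overlapping matches. Rsad2, which encodes the antiviral enzyme viperin, lies at chr6:48788233-48788292, minus strand.
Gbp4: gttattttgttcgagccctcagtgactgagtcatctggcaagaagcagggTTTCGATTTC
Irf7: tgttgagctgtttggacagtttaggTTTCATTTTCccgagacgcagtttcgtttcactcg
Ifi44: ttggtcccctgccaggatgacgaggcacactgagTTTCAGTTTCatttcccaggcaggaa
Oas1a: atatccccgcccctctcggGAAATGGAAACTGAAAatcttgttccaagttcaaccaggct
Rsad2: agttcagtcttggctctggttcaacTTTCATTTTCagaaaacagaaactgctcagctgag

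All 5 genes were called lower in MI6h_R, and Sham library 11 was the highest library for each. Irf7 had 52.8, 60.5 and 25.1 CPM in MI6h_R, against 882, 58.8 and 229 CPM in Sham, and overlapped. Its log2 fold change of -3.08 was -1.61 and not called without Sham library 11, and also not called without MI6h_R library 31 (-2.78). Ifi44 had 13, 9.63 and 13.8 CPM in MI6h_R, against 164, 41.9 and 79.8 CPM in Sham, and was called under every omission, at -2.31 without Sham library 11 against -2.97 with it. Gbp4 had a log2 fold change of -3.62, and -1.84 without Sham library 11, where the call was lost. Oas1a had -2.59, and lost its call without Sham library 11 (-1.24), MI6h_R library 21 (-2.41) or MI6h_R library 31 (-2.28), and stood at -3.26 without MI6h_R library 11. Rsad2 had -2.48, and lost its call without Sham library 11 (-0.83), MI6h_R library 11 (-2.46) or MI6h_R library 21 (-2.49).

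**Figure D3:**
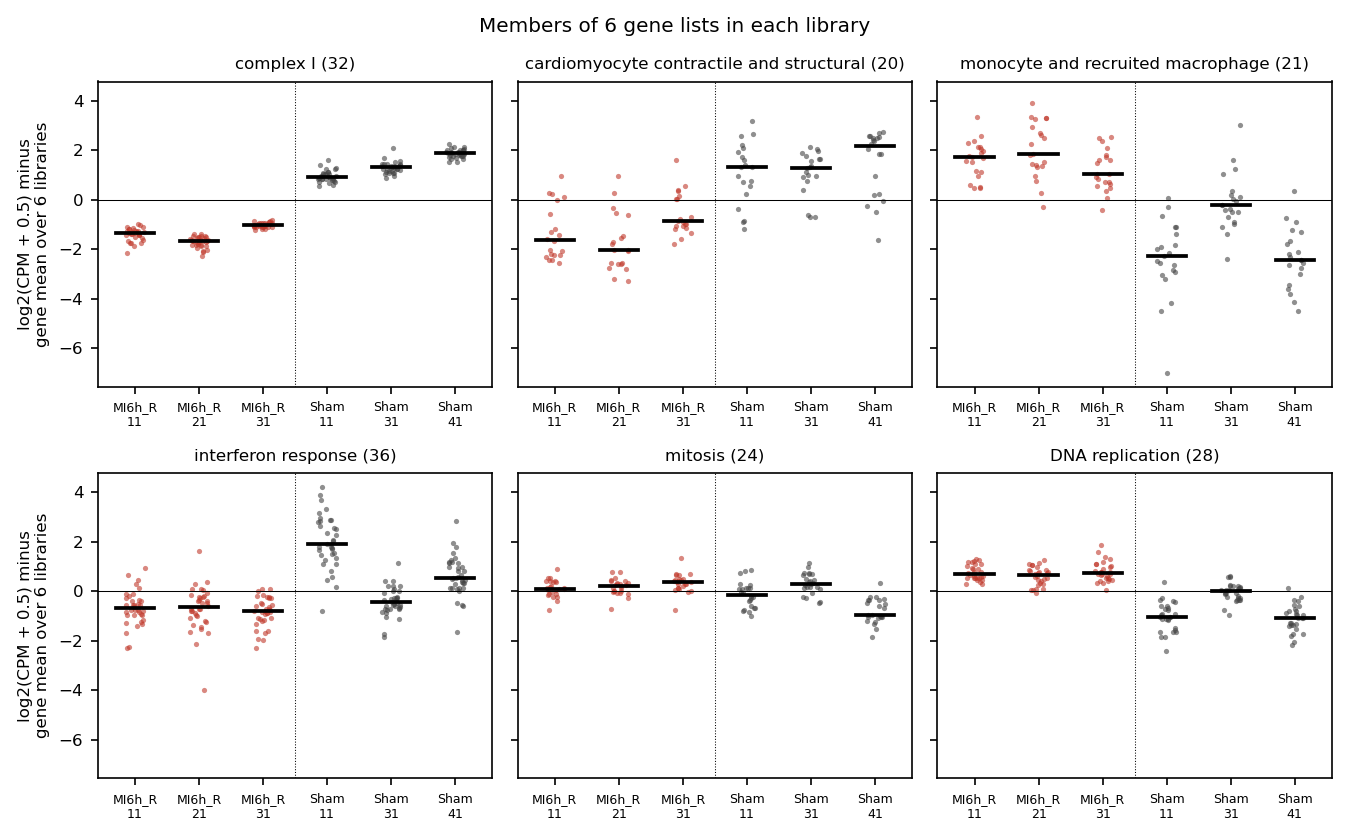
For 6 gene lists, the vertical axis shows each gene's log2(CPM + 0.5) minus its mean over the 6 libraries, with 1 column of points per library, a black bar at its median, and MI6h_R left of Sham. Complex I and contractile genes are low in all MI6h_R libraries, and Sham library 31 carries recruited macrophage genes. Summed interferon-response RNA is highest in Sham library 11, followed by Sham library 41.

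Under TMM, genes of resident fibroblasts were mostly lower in MI6h_R hearts, while genes of activated fibroblasts and of the provisional matrix were higher. Of 31 fibroblast and matrix genes, 20 fell and 1 rose, with a median of -1.21, and 3 rose without Sham library 11. Scaled by library size alone, 13 fell, 9 rose and the median was -0.35. On TPM 11 fell, 10 rose and the median was -0.02, so the fall of this list depends on the scaling. Col3a1, the fibrillar collagen III chain, averaged 826 ± 244 CPM in MI6h_R and 5290 ± 281 CPM in Sham (log2 fold change -2.68 ± 0.39, edgeR adjusted p = 1.55e-05). Dpt, dermatopontin of the matrix, fell by 2.48 ± 0.35, and Gsn, the actin-severing gelsolin, by 2.68 ± 0.25. Markers of fibroblasts summed to 701, 655 and 741 CPM in MI6h_R and to 2556, 1918 and 1994 CPM in Sham. Of 22 genes of activated fibroblasts and provisional matrix, 14 rose and 3 fell, with a median of 2.31, and 17 rose and 1 fell both with library size alone and on TPM. Runx1, a transcription factor re-expressed in injured hearts, averaged 45.5 ± 6.91 CPM in MI6h_R and 5.21 ± 3.16 CPM in Sham. Has2, which makes hyaluronan, rose by 2.89 ± 0.37, or by 3.62 without Sham library 31. Cilp, a cartilage-type matrix protein of cardiac fibroblasts, had 0.679, 0.542 and 0.331 CPM in MI6h_R, against 21.4, 17.3 and 14.0 CPM in Sham, and fell by 5.06 ± 0.79. Postn, the periostin of scar-forming fibroblasts, had 386, 214 and 527 CPM in MI6h_R, against 107, 441 and 65.5 CPM in Sham. It overlapped and was not called (log2 fold change 0.88 ± 0.49), but without Sham library 31 it was 2.16 and called.

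Proteases of the matrix were raised more often than lowered. Of 27 proteases and inhibitors, 17 rose and 6 fell (23 and 3 on TPM), with a median of 2.02, or 1.73 with genes that had no Sham count set to their bound. Adamts4, an aggrecanase that cleaves proteoglycans, had 77.3, 103 and 90.0 CPM in MI6h_R, against 2.17, 3.82 and 0.768 CPM in Sham (log2 fold change 5.29 ± 0.58, or 5.94 without Sham library 31). Mmp8, the neutrophil collagenase, averaged 35.4 ± 12.6 CPM in MI6h_R and 0.876 ± 0.308 CPM in Sham. Mmp2, the gelatinase of fibroblasts, averaged 97.3 ± 34.3 CPM in MI6h_R and 338 ± 69.1 CPM in Sham, and fell by 1.8 ± 0.29.

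Stretches upstream of 4 such genes are shown because AP-1, the dimer of Fos and Jun proteins, binds TGANTCA. Matches are a description of these windows only, and whether any AP-1 protein acts on these genes was not tested. Fosl1, a Fos-related partner in AP-1, was among the largest risers. It had 71.9, 80.9 and 51.9 CPM in MI6h_R, against 0.850, 2.46 and 0.658 CPM in Sham. The change on the log2 scale was 5.65 ± 0.39 (edgeR adjusted p = 6.81e-08), or 6.52 without Sham library 31. The letters were present in 21.1% of the promoters of proteases and inhibitors (4 of 19), in 66.7% of those of coagulation and fibrinolysis genes (6 of 9), in none of 13 of activated fibroblast genes, and in 5.12% of the promoters of all genes tested. Among genes that rose at least 4-fold the share was 8.94%. The letters were not particular to these lists. The share was 30% for monocytes and recruited macrophages (3 of 10) and 28.6% for the interleukin 6 family and growth cytokines (4 of 14). It was 23.1% for complement and acute phase genes (3 of 13), and 0 for the TGF-β family (of 22) and DNA replication (of 21). Plaur is counted in both the protease and the coagulation list. The stretches belong to the called members of the protease list with a match upstream of the start, come from RefSeq, build GRCr8, and carry the match in capitals. Mmp3, the stromelysin that activates other metalloproteinases, lies at chr8:12925183-12925242, plus strand. Mmp13, a collagenase, lies at chr8:12782736-12782795, plus strand. Plaur, the receptor of urokinase, lies at chr1:89181253-89181312, plus strand. Mmp12, the macrophage elastase, lies at chr8:12866538-12866597, plus strand.
Mmp3: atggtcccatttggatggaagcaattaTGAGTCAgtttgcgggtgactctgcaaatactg
Mmp13: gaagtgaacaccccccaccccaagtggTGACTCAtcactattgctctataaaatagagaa
Plaur: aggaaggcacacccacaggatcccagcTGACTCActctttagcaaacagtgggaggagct
Mmp12: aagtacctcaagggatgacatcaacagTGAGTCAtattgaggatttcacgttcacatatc

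Mmp3, Mmp13 and Plaur had no count in any Sham library. Mmp3 had 36, 47 and 14 counts in MI6h_R libraries and was at least 6.04-fold higher there. Mmp13 had 16, 52 and 15 counts in MI6h_R libraries and was at least 5.35-fold higher. Plaur had 9, 8 and 5 counts in MI6h_R libraries, a bound of only 1.35-fold. Mmp12 had 80.5, 203 and 79.0 CPM in MI6h_R, against 0.0945, 12.7 and 0.110 CPM in Sham, where library 31 held nearly all of it. The gene's log2 fold change was 4.77 ± 0.92, 10.15 without Sham library 31 and 4.18 without MI6h_R library 21.

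TGF-β family genes rose more often than they fell, with 13 of 29 higher, 3 lower and a median of 0.53. Under library size alone, 25 were higher and 1 lower, and on TPM 27 and 1. Inhba, the activin A subunit, had 14.5, 23.6 and 20.6 CPM in MI6h_R, against 0.850, 0.0910 and 0.219 CPM in Sham (log2 fold change 5.62 ± 0.81, or 6.97 without Sham library 11). Grem1, a secreted antagonist of bone morphogenetic proteins, had 4.99, 7.22 and 10.8 CPM in MI6h_R, against 0.189, 0 and 0.110 CPM in Sham. In the fit its log2 fold change was 6.17 ± 0.55, or 7.05 without Sham library 11. Bmp6, one of the ligands of that family, fell by 2.15 ± 0.34. Of 18 genes of coagulation and fibrinolysis, 10 rose and 2 fell (13 and 0 with library size alone, 17 and 0 on TPM), with a median of 1.36, or 0.95 with genes without a Sham count at their bound. Procr, the endothelial receptor of protein C, averaged 19.6 ± 2.40 CPM in MI6h_R and 4.36 ± 1.42 CPM in Sham.

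Endothelial genes moved in both directions under TMM. Of 29 endothelial genes, 10 rose and 8 fell, with a median of 0.16. With library size alone 19 rose, 3 fell and the median was 1.0, and on TPM 20 rose, 3 fell and the median was 1.33, so the balance of this list depends on the scaling. Icam1, the adhesion molecule that leukocytes use to leave the blood, averaged 89.6 ± 9.78 CPM in MI6h_R and 22.4 ± 7.14 CPM in Sham (log2 fold change 2.0 ± 0.23). Sele, the E-selectin of inflamed endothelium, had 29.4, 18.3 and 44.8 CPM in MI6h_R, against 9.07, 12.4 and 8.12 CPM in Sham (log2 fold change 1.64 ± 0.37). Apln, the angiogenic peptide apelin of tip cells, had 72.5, 94.1 and 51.8 CPM in MI6h_R, against 15, 4.46 and 11.6 CPM in Sham (log2 fold change 2.81 ± 0.40, edgeR adjusted p = 1.31e-05). Emcn, a sialoprotein of capillary and venous endothelium, fell by 1.33 ± 0.24, and the call was lost with library size alone (-0.47). Vwf, the von Willebrand factor stored in endothelium, had 358, 256 and 355 CPM in MI6h_R, against 349, 205 and 181 CPM in Sham. It overlapped and was not called (log2 fold change 0.40 ± 0.26), but was called at 0.75 without Sham library 11. Of 15 smooth muscle and pericyte genes, 5 rose and 6 fell, with a median of -0.15, which was 0.70 with library size alone. Under that scaling 8 rose and 4 fell, and on TPM 8 and 3. Smtn, the contractile-type smoothelin, averaged 53.7 ± 5.6 CPM in MI6h_R and 291 ± 77.1 CPM in Sham.

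Genes that license DNA replication were raised, while those of mitosis were mostly not called. Of 28 DNA replication genes, 24 rose and none fell, with a median of 1.33. Mcm7, a subunit of the replicative helicase, had 98.6, 97.0 and 96.8 CPM in MI6h_R, against 27.4, 46.5 and 29.4 CPM in Sham (log2 fold change 1.5 ± 0.18, edgeR adjusted p = 2.51e-06). Mcm6, of the same helicase, rose by 2.24 ± 0.28, or by 2.91 without Sham library 31. Ccnd1, the cyclin that opens the G1 phase, averaged 251 ± 19.4 CPM in MI6h_R and 89.7 ± 23 CPM in Sham. Of 24 mitosis genes, 2 rose and 1 fell, with a median of 0.45. Without Sham library 31, 10 rose and 1 fell, without Sham library 41, 1 rose, with library size alone 16 rose and none fell, and on TPM 20 rose and none fell. Mki67, a marker of cycling cells, had 36.6, 43.6 and 47.2 CPM in MI6h_R, against 37.6, 39.2 and 17.3 CPM in Sham, and overlapped. Mki67 was not called, with a log2 fold change of 0.43 ± 0.36 (edgeR adjusted p = 0.309).

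Genes that build ribosomes were raised, while those of ribosomal proteins were mostly not called under TMM. Of 26 genes of ribosome biogenesis and nucleotide supply, 24 rose and none fell, with a median of 1.36. Nolc1, a nucleolar chaperone of ribosome assembly, had 180, 196 and 184 CPM in MI6h_R, against 58.5, 83.0 and 79.7 CPM in Sham (log2 fold change 1.34 ± 0.14, edgeR adjusted p = 7.74e-07). Bop1, which processes large-subunit RNA, averaged 128 ± 13.9 CPM in MI6h_R and 39.2 ± 12 CPM in Sham. Of 33 cytosolic ribosomal protein genes, 1 rose and none fell, with a median of -0.05. Scaled by library size alone, 22 of them rose and the median was 0.81, and on TPM 29 rose and the median was 1.26. With a trend on transcript length removed, 17 rose and the median was 0.45. The direction of that list therefore depends on the scaling and on the treatment of transcript length. Under TMM, 5 rose without Sham library 31, where the median was 0.23. Without Sham library 11, 5 fell, and without MI6h_R library 31, 2 rose. The letters CACGTG, the E-box bound by Myc and other factors, were present in 36.4% of the promoters of ribosome biogenesis genes (8 of 22) and in 9.41% of those of all genes tested. Every CACGTG also holds ACGTG.

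**Figure D4:**
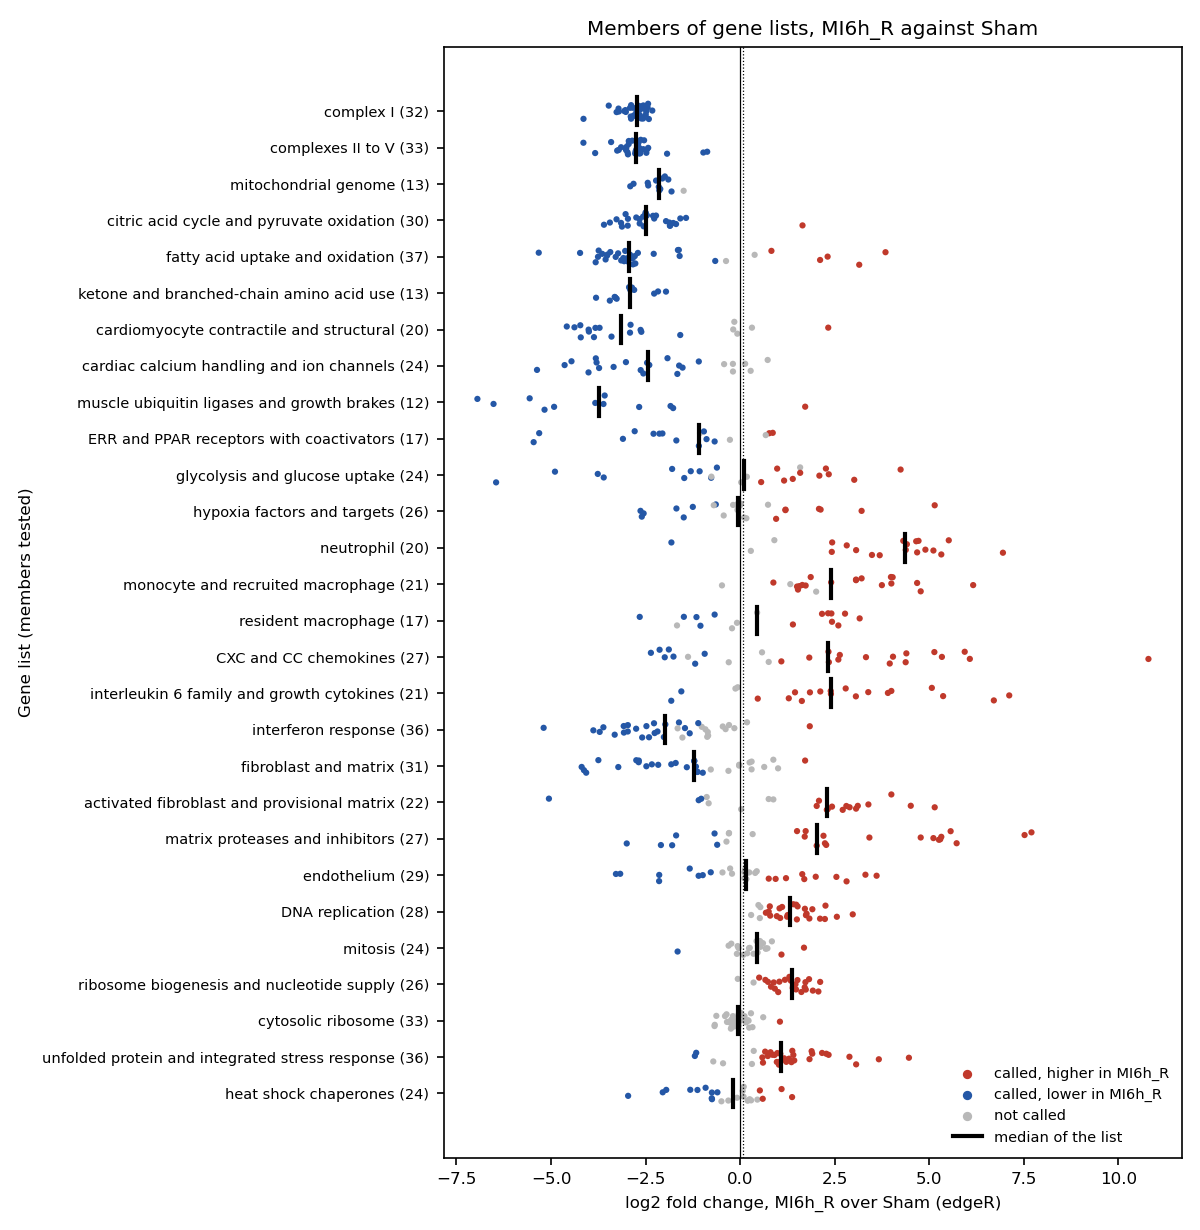
Each row is 1 of 28 gene lists, each dot a gene's log2 fold change, MI6h_R over Sham, each bar the list's median, and the dotted line the median of all tested genes at 0.06. Oxidative and muscle lists lie left of the line with medians down to -3.72, neutrophil genes lie farthest right at 4.35, and DNA replication and ribosome biogenesis genes lie together at 1.33 and 1.36.

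Stress pathways differed from each other. Of 36 genes of the unfolded protein and integrated stress responses, 30 rose and 2 fell, with a median of 1.07. Slc7a5, the transporter of large neutral amino acids, had 156, 174 and 164 CPM in MI6h_R, against 10.8, 20.2 and 7.79 CPM in Sham, without overlap (log2 fold change 3.67 ± 0.28, edgeR adjusted p = 9.08e-08). Asns, asparagine synthetase, averaged 34.6 ± 5.66 CPM in MI6h_R and 4.10 ± 1.11 CPM in Sham. Atf6, a sensor of misfolded protein in the endoplasmic reticulum, rose by 1.83 ± 0.28. Of 24 immediate early genes, 15 rose and 1 fell, with a median of 1.10, and 2 fell without Sham library 11. Egr1, a zinc-finger factor induced within minutes in many cells, averaged 63.9 ± 11.2 CPM in MI6h_R and 16.1 ± 6.39 CPM in Sham. Heat shock chaperones fell more often than they rose, with 10 of 24 lower and 4 higher (median -0.20), but with library size alone 12 were higher and 3 lower (median 0.66), and on TPM 18 and 2. Hspb6, a small heat shock protein of muscle, averaged 275 ± 186 CPM in MI6h_R and 2139 ± 211 CPM in Sham (log2 fold change -2.96 ± 0.48, or -3.66 without MI6h_R library 31). Hspb1, its widely expressed relative, had 1505, 1272 and 1850 CPM in MI6h_R, against 273, 993 and 520 CPM in Sham (log2 fold change 1.37 ± 0.42, or 2.0 without Sham library 31).

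Antioxidant genes were divided, with 9 of 30 higher, 11 lower and a median of -0.02, which was 0.85 with library size alone and 0.10 without Sham library 31 or 41. The split was 17 higher and 7 lower with library size alone, and 21 and 6 on TPM. Hmox1, the heme-degrading oxygenase, had 918, 1192 and 434 CPM in MI6h_R, against 22.5, 214 and 38.5 CPM in Sham (log2 fold change 3.21 ± 0.66, or 4.84 without Sham library 31). Sod1, the cytosolic superoxide dismutase, averaged 88.5 ± 9.59 CPM in MI6h_R and 343 ± 86.6 CPM in Sham, and fell by 1.95 ± 0.19. Of 29 cell death genes, 12 rose and 5 fell, with a median of 0.73, against 22 and 2 with library size alone and 25 and 2 on TPM. Bid, which links death receptors to mitochondria, had 67.1, 69.8 and 52.1 CPM in MI6h_R, against 5.48, 18 and 8.66 CPM in Sham (log2 fold change 2.55 ± 0.31, or 3.20 without Sham library 31). Of 20 genes of prostaglandin and leukotriene synthesis, 9 rose and 3 fell (median 0.51), or 13 and 2 with library size alone and 14 and 2 on TPM. Ptgds, a prostaglandin D synthase, fell by 3.66 ± 0.77, at 0.921, 0.120 and 0.827 CPM in MI6h_R, against 6.90, 4.46 and 12.9 CPM in Sham.

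Receptors for hormones of the circulation fell more often than they rose under TMM, with 7 of 17 lower, 4 higher and a median of -0.86, which was 0.16 on TPM. Under library size alone, 4 were lower and 5 higher, and on TPM 3 and 5. Adrb1, the main β-adrenergic receptor of heart muscle, had 3.78, 2.05 and 9.81 CPM in MI6h_R, against 32.1, 30.8 and 27.2 CPM in Sham (log2 fold change -2.52 ± 0.57, or -3.35 without MI6h_R library 31). Npr1, the receptor of atrial natriuretic peptide, had 140, 128 and 153 CPM in MI6h_R, against 82.9, 86.3 and 81.7 CPM in Sham, and rose by 0.75 ± 0.14 (edgeR adjusted p = 0.000143). Of 28 growth factors and angiogenic genes, 13 rose and 9 fell, with a median of 0.93, against 15 and 5 with library size alone and 18 and 3 on TPM. Hbegf, a membrane-bound ligand of the EGF receptor, averaged 43.8 ± 9.75 CPM in MI6h_R and 5.36 ± 1.37 CPM in Sham. In lysosome and phagocytosis genes, 9 of 27 rose and 3 fell, and without Sham library 31, 15 rose and 2 fell. On TPM 24 rose, with library size alone 21 rose, and none fell on either scale. Mertk, the receptor through which macrophages engulf dying cells, averaged 50.5 ± 12.4 CPM in MI6h_R and 5.36 ± 2.46 CPM in Sham (log2 fold change 3.23 ± 0.34).

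Some called genes had no count in one of the groups. There were 41 with no count in Sham, of which Cxcl3 had the highest bound. Serpinb2, the plasminogen activator inhibitor of monocytes, had 25, 28 and 111 counts in MI6h_R libraries and was at least 10.2-fold higher there. There were 5 with no count in MI6h_R, among them Dnase1l3, an endonuclease secreted by myeloid cells, with 20, 16 and 16 counts in Sham libraries. It was at least 10.4-fold lower in MI6h_R.

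A direct contrast asked how the reperfused hearts differed from hearts whose artery stayed closed for 24 h. The MI6h_R libraries are the same as above. Far fewer genes differed, with 13 higher (0.111%) and 46 lower (0.392%) in MI6h_R than in MI24h by edgeR, so that 0.502% were called either way. The numbers depended on single libraries. They were 28 higher and 82 lower without MI24h library 21, 6 and 8 without MI24h library 11, 8 and 25 without MI24h library 41, 13 and 30 without MI6h_R library 11, 8 and 9 without MI6h_R library 21, and 9 and 12 without MI6h_R library 31. Hypoxia-related genes made up part of the lower ones, with 10 of 26 lower, none higher and a median of -1.09. Of these, 1 was called without MI24h library 11, MI6h_R library 21 or MI6h_R library 31, 4 without MI24h library 41, and 15 without MI24h library 21, while the median stayed between -1.27 and -0.90. Of 24 genes of glycolysis, 7 were lower and none higher, and 2 were lower without MI24h library 11 or MI6h_R library 31 and 1 without MI6h_R library 21. Egln3 had 86.1, 27.9 and 58.1 CPM in MI6h_R, against 688, 265 and 544 CPM in MI24h (log2 fold change -3.12 ± 0.48, edgeR adjusted p = 0.00515). Vegfa had 143, 88.1 and 112 CPM in MI6h_R, against 601, 232 and 353 CPM in MI24h. This amounted to a log2 fold change of -1.79 ± 0.33 (edgeR adjusted p = 0.0173), and its call was lost without MI24h library 11 (-1.35), MI6h_R library 21 (-1.63) or MI6h_R library 31 (-1.77). Slc2a1, which was higher in MI6h_R than in Sham, had 140, 140 and 104 CPM in MI6h_R, against 670, 255 and 383 CPM in MI24h. The change on the log2 scale was -1.77 ± 0.34 (edgeR adjusted p = 0.0196), and the call was lost without MI24h library 11 (-1.32) or any one of the MI6h_R libraries 11 (-1.83), 21 (-1.84) and 31 (-1.64). Cxcr4, the receptor of Cxcl12, had 50.4, 41.5 and 29.2 CPM in MI6h_R, against 145, 156 and 161 CPM in MI24h, and fell by 1.93 ± 0.24.

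The genes higher in MI6h_R than in MI24h included markers of resident-type macrophages, of which 3 of 17 were higher and 1 lower, or 2 higher without MI24h library 11 or MI6h_R library 21, and none lower without the last of these. Cd163 had 157, 305 and 211 CPM in MI6h_R, against 11.5, 7.64 and 18.6 CPM in MI24h (log2 fold change 4.16 ± 0.61, edgeR adjusted p = 0.00349). Mrc1 had 287, 424 and 411 CPM in MI6h_R, against 45.1, 70.7 and 72.9 CPM in MI24h (log2 fold change 2.57 ± 0.33). Clec10a, a lectin of alternatively activated macrophages that is not in that list, had 75.1, 83.8 and 49.3 CPM in MI6h_R, against 12.5, 12 and 16.1 CPM in MI24h. Cd163, Mrc1 and Clec10a did not overlap between groups, and each was called whichever library was left out. Marker sums of resident macrophages were 563, 830 and 704 CPM in MI6h_R and between 121 and 182 CPM in MI24h. Cd163 and Mrc1 are among the markers summed and made up most of the sum in MI6h_R, so it adds little to their values. Of the 17 genes in the list, 13 were not called. The list's median was 0.46, and its members ranged from -2.62 to 4.16. Krt7, a keratin of simple epithelia, was also higher, at 18.5, 23.3 and 14.4 CPM in MI6h_R, against 4.37, 2.87 and 4.32 CPM in MI24h. In the interferon-response list no gene was called, although 22 of 36 had every MI6h_R library below every MI24h library, with a median of -1.71. Over all genes tested, 7.09% lay below without overlap and 5.91% above.

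The second contrast, with 1 h of ischemia in place of 6 h, asked how late differed from early reperfusion. Here 135 genes were higher (1.15%) and 148 lower (1.26%) in MI6h_R than in MI1h_R by edgeR, or 2.41% either way. Both numbers depended on single libraries, and 730 genes were higher and 551 lower without MI1h_R library 41. They were 27 and 33 without MI1h_R library 11, 9 and 13 without MI1h_R library 31, 18 and 7 without MI6h_R library 11, 21 and 3 without MI6h_R library 21, and 58 and 54 without MI6h_R library 31. Among 32 complex I genes 6 were lower, with a median of -0.77, and between 0 and 13 were lower with 1 library left out. Among 33 genes of complexes II to V 8 were lower, with a median of -0.64, and likewise between 0 and 13. Of 24 mitosis genes, 5 were lower and 20 had every MI6h_R library below every MI1h_R library (median -1.20), which held for 13.2% of all genes, while 11.5% lay above. Without MI1h_R library 41, 16 mitosis genes were lower, without MI6h_R library 31, 1 was, and without any one of the other libraries none was. Apln had 72.5, 94.1 and 51.8 CPM in MI6h_R, against 11.2, 11.2 and 16.8 CPM in MI1h_R (log2 fold change 2.48 ± 0.39, edgeR adjusted p = 0.00624). Akap12, a scaffold of protein kinase A, had 495, 538 and 493 CPM in MI6h_R, against 71.7, 132 and 137 CPM in MI1h_R (log2 fold change 2.16 ± 0.27, edgeR adjusted p = 0.00238). Krt7 was higher here too, at 18.5, 23.3 and 14.4 CPM in MI6h_R, against 3.42, 4.64 and 2.92 CPM in MI1h_R (log2 fold change 2.35 ± 0.36). Cd163 had 157, 305 and 211 CPM in MI6h_R, against 14.9, 26.8 and 38.8 CPM in MI1h_R, a log2 fold change of 3.06 ± 0.58 (edgeR adjusted p = 0.0146) that lost its call without MI1h_R library 11 (2.77), MI1h_R library 31 (3.06) or MI6h_R library 21 (2.77). Of the 36 interferon-response genes, 3 were lower, between 0 and 2 with 1 library left out, and 28 had every MI6h_R library below every MI1h_R library, with a median of -1.78. The median was -1.10 without MI1h_R library 41 and -2.09 without MI1h_R library 11.

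**Figure D5:**
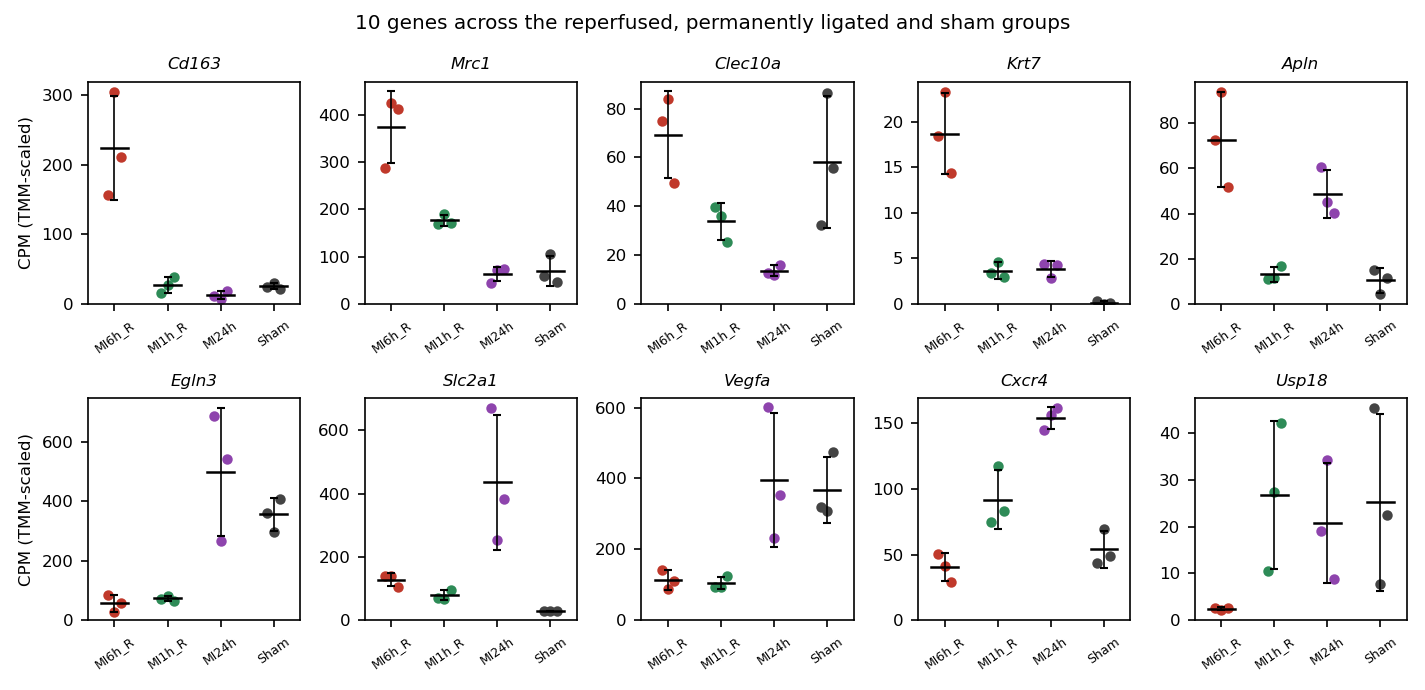
Each panel shows the CPM of 1 of 10 genes on a linear axis that starts at 0, with 1 point per library in MI6h_R, MI1h_R, MI24h and Sham, the group mean as a line and the SD as bars. Every MI6h_R library lies above all others for Cd163 and Mrc1, and the mean of Egln3, Slc2a1 and Cxcr4 is highest in MI24h.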

How the data were processed

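Messenger RNA from the tissue labelled infarct zone was made into libraries and sequenced on an Illumina platform, per the labels' protocols. The authors deposited estimated counts per gene (expected counts) and TPM (abundance relative to transcript length and library depth) for 21 libraries in 7 groups of 3. STAR 2.7.3a, RSEM 1.3.1 and the build rn7 are named in the submitters' processing notes. The expected counts were used as deposited, with no rounding here.

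Genes with low counts were removed with filterByExpr, leaving 11742, and a quasi-likelihood model with 1 mean per group was fitted to all 21 libraries in edgeR 4.0.16 (R 4.3.3) with TMM factors, so that all groups share 1 estimate of spread. A gene was called at a Benjamini-Hochberg adjusted p below 0.05 over all tested genes, and an SE is the log2 fold change divided by the root of its F. Data were also simulated with gene means averaged over all 21 libraries and the fitted spread. In them 200 genes of at least 10 CPM were changed in MI6h_R. The procedure found 135 of these 200 against Sham, 31 of 50 at 2-fold and 47 of 50 at 4-fold. It also made 17 false calls, a larger share of its calls than the threshold of 0.05 aims at. Far fewer genes were changed there than were called in the real contrast, so these rates need not hold for it. Alternatives used DESeq2 1.42.0 and limma 3.58.1, among others. Replicate numbers 11 and 31 occur in both groups. Their same-numbered libraries correlated at -0.442 and -0.319 in their deviations from group means. Among all groups without F, same-numbered libraries ranged from -0.539 to 0.32. The numbers were not treated as pairs, but with 3 libraries per group these values cannot settle whether they mark pairs.

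The members and the 50 gene lists were chosen with earlier results of these data known. Of 1276 listed symbols, 1095 had a row and 1053 were tested. Genes are named by rule: the largest called changes with a mean of at least 10 CPM, per list the called members of smallest p with the most abundant exceptions, the ERR and PPAR regulators, and genes with no count in one group. Some genes that this rule names are not reported here. The genes with printed promoters were picked by their motif match, after their values were seen, and 7 motifs were searched in all lists. Promoters are from RefSeq build GRCr8, not from rn7, and coordinates of these builds were not combined. Some symbols share identical counts with another symbol (353 sets), and none of the named genes belongs to such a set. Strandedness of the counting is not given in the sources used here, so reads of overlapping antisense genes cannot be told apart.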

Additional observations from a re-analysis of the deposited data

How the results depend on the processing

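Against Sham, 3438 genes were higher in MI6h_R and 3283 lower. With library size alone the counts were 6878 and 1510, and with limma on log2(TPM + 1) 7946 and 1172. Leaving out 1 library gave 2840 to 3550 higher and 2775 to 3270 lower. The replicate block, which treats equal numbers as pairs although the labels do not call them that, gave 2084 higher. The other alternatives stayed within 1.5 times.

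The direct contrasts were far less stable. Against MI24h, DESeq2 called 68 higher and 128 lower, limma on log2(TPM + 1) 22 and 25, and the 12 libraries without F 6 and 7. Library size alone gave 28 lower, the replicate block 1 and 1, and leaving out 1 library 6 to 28 higher and 8 to 82 lower. Against MI1h_R, DESeq2 called 465 higher and 458 lower, limma-voom with quality weights 1651 and 1367, limma on log2(TPM + 1) 875 and 90, and the 12 libraries without F 8 and 5. Library size alone gave 74 lower and no filter 90 lower. The replicate block gave 1 higher and 3 lower, and leaving out 1 library 9 to 730 higher and 3 to 551 lower. The cause was not tested.

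For 139 values of named genes, 2356 of 2485 alternative values kept direction and side of the threshold. A call was lost under some alternative for 31 of the 139, and on leaving out 1 library for 13. The direction reversed under some alternative for 7 genes. With library size alone the log2 fold change became 0.70 for Des, 0.76 for Csrp3, 0.62 for Lyve1 and 0.70 for Casp1. On log2(TPM + 1) it became 1.07 for Des, 1.26 for Csrp3, 0.33 for Esrra, 0.92 for Lyve1 and 0.97 for Casp1. Removing a length trend gave 0.27 for Csrp3 and -0.09 for Mki67, the replicate block gave 0.18 for Csrp3, and limma-voom gave -0.06 for Slc25a5. Leaving out 1 library gave -0.41 to 0.54 for Csrp3, -0.34 to 0.05 for Des and -0.12 to 0.21 for Slc25a5. Genes near 1 CPM, such as Esrrb, rest on few reads.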

Other observations

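Clock genes had 3 of 16 higher and 5 lower in MI6h_R than in Sham, with a median log2 fold change of -0.22, which was 0.65 with library size alone. Under that scaling 9 were higher and 4 lower, and on TPM 9 and 2. The 3 were 1 without Sham library 31 or 41 or MI6h_R library 21 or 31. Dbp, an output factor of the clock, had 23.7, 17.6 and 12.7 CPM in MI6h_R, against 123, 32.1 and 67.3 CPM in Sham. Its log2 fold change was -2.04 ± 0.43 (edgeR adjusted p = 0.000543), or -1.44 without Sham library 11. Nfil3, a repressor of the same sites, had 50.4, 47.7 and 42.6 CPM in MI6h_R, against 13.8, 26.9 and 29.7 CPM in Sham, and rose by 1.00 ± 0.28. Times of day are not stated in the labels.

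In the contrast with MI1h_R, Rpl41, a ribosomal protein with one of the shortest coding sequences known, had 1.99, 2.11 and 2.15 CPM in MI6h_R, against 12.9, 23.2 and 110 CPM in MI1h_R. Rpl41 had a log2 fold change of -4.55 ± 0.64 (edgeR adjusted p = 0.00395), or -3.11 without MI1h_R library 41. Rps28 had 15.1, 13.4 and 15.3 CPM in MI6h_R, against 71.0, 75.4 and 245 CPM in MI1h_R (log2 fold change -3.16 ± 0.62). It was -2.33 without MI1h_R library 41, and the call was lost without MI6h_R library 11 (-3.19), 21 (-3.10) or 31 (-3.20). With a trend of fold change on transcript length removed, the log2 fold changes were -3.93 for Rpl41 and -2.51 for Rps28.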
